A study of Arabidopsis thaliana with 24 samples.

Results

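The comparison described here sets whole seedlings of the reference accession Col-0 of Arabidopsis thaliana grown at 16 °C against seedlings of the same accession grown at 23 °C. It uses 6 of the 24 libraries of the series, chosen by their labelled genotype and temperature: 3 libraries at 16 °C and 3 at 23 °C. The other 18 libraries, which include Col-0 at 10 and 27 °C and the natural accession IP-Svi-0 at all 4 temperatures, entered the same statistical model and are used below only where they show how Col-0 at 16 °C differed. Its stated aim was to find genes that differ in expression in IP-Svi-0 and bear on the early flowering of that accession.

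Both groups carried the genotype given as Col-0 background, grew on half-strength MS medium and were stratified for 3 days before they were moved to growth rooms. Seedlings at 16 °C were collected 12 days after the move and those at 23 °C after 8 days, so temperature and age cannot be told apart. The labels give no developmental stage and do not say whether the replicates were separate cultures, so the p-values measure only the spread between these libraries. Whole seedlings mix root, leaf, vascular and meristem cells, and fewer cells of a type cannot be told apart from less RNA per cell.

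Ambient temperature shifts growth, flowering and stress physiology in Arabidopsis well within the range in which the plant is healthy. Moderate cool slows development, raises the activity of floral repressors such as FLM and SVP, and primes part of the cold-acclimation programme, in which CBF transcription factors switch on COR and KIN genes. A separate, very fast programme of WRKY, ERF, zinc-finger and calcium-binding protein genes answers touch, wounding, microbial elicitors and abrupt stress within minutes, and many of its genes carry W-boxes, the binding word of WRKY factors, in their promoters.

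Depth and composition differed between the groups. The libraries at 16 °C held 338784 to 381485 counts at genes and those at 23 °C 558395 to 748770, which was 1.51% ± 0.0908 (SD, n = 3) against 2.75% ± 0.397 of all reads. Reads that aligned once but at no annotated gene were 59.6 to 72.9% at 16 °C and 86.5 to 89.2% at 23 °C. The libraries were strand-specific, and no source used here states how strand was handled in counting, so the counts at any gene, overlapping or not, may come from the strand opposite to its annotation; whether they do was not tested. Levels below are in CPM, counts scaled to the size of each library with the TMM method, and 1 count was worth 1.19 to 3.90 CPM. Reads aligned to more than 1 place, which were not counted at genes, made up 22.9 to 35.8% of the libraries at 16 °C and 3.83 to 7.40% at 23 °C. In the other 18 libraries the largest such share was 26.5%, in 1 Col-0 library at 10 °C. Counts at chloroplast and mitochondrial genes took 6.13% ± 3.29 of counts at genes at 16 °C and 0.682% ± 0.305 at 23 °C (SD, n = 3 each). Neither of these shares overlapped between the groups, and the exact permutation test gave p = 0.1 for each, the smallest that 3 libraries against 3 allow. Green-tissue transcripts were abundant in both groups: the Rubisco small subunit gene RBCS1A stood at 4818 ± 1001 CPM at 16 °C and 4922 ± 676 CPM at 23 °C (SD, n = 3).

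**Figure D1:**
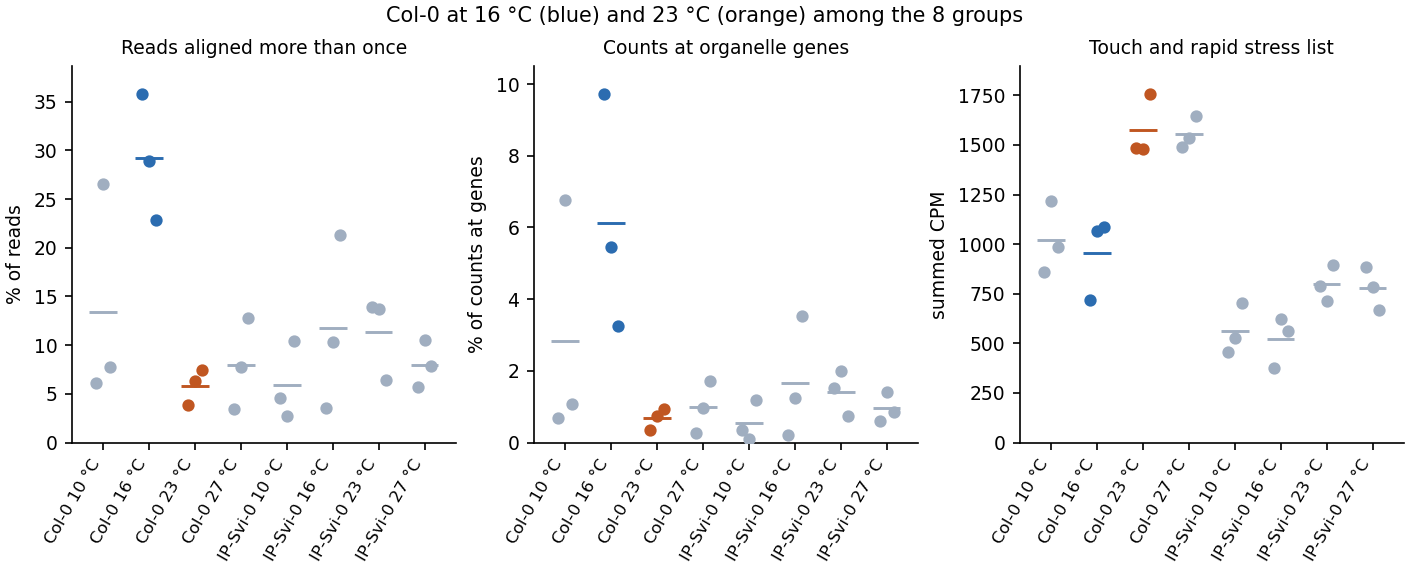
Share of all reads aligned to more than 1 place, share of gene counts at organelle genes, and summed CPM of the tested touch and rapid stress genes. Points are the 24 libraries and lines the mean of each group. The Col-0 libraries at 16 °C lie at 22.9 to 35.8% in the first panel and at 719.959 to 1085 CPM in the third, those at 23 °C at 3.83 to 7.40% and 1481 to 1756 CPM.

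Of 10097 genes tested, 124 (1.23%) were called between 16 and 23 °C at an adjusted p under 0.05 in edgeR's quasi-likelihood test. At 16 °C, 52 genes (0.515%) were higher and 72 (0.713%) were lower, and the median log2 change of all tested genes was 0.016. The 72 lower genes were all nuclear and protein-coding. The higher genes were of another make-up: 28 were protein-coding, 17 were organelle genes of 44 tested, 3 were all the nuclear ribosomal RNA genes tested, and 4 were other nuclear RNA genes. The 3 libraries of each group did not overlap for 71 of the 72 lower genes and 48 of the 52 higher genes. Without overlap in that sense stood 871 (8.63%) of all tested genes on the lower side and 663 (6.57%) on the higher side.

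The calls moved with single libraries and with the share of multiply aligned reads. With each of the 6 Col-0 libraries left out in turn, 13 to 71 genes were called higher and 30 to 53 lower, and 20 lower and 6 higher genes were called in all 6 fits. The higher calls were fewest without replicate 1 (13) or 2 (16) at 23 °C and without replicate 2 (22) or 3 (32) at 16 °C. The lower calls were fewest without replicate 2 (30) or 3 (46) at 16 °C and without replicate 1 at 23 °C (42). When the share of multiply aligned reads was added to the model, an alternative chosen after the data were seen, 6 of the 124 genes were still called: WRKY33, CZF1, SOBIR1 and AT1G50750 as lower, AT5G57770 and AT2G36970 as higher. The 72 lower genes all kept a negative change in that fit, with a median of -1.72 in place of -1.96 on the log2 scale and a median standard error of 0.65 in place of 0.41. The 32 higher nuclear genes other than ribosomal RNA had a median of 1.42 in place of 1.48, and 30 kept their sign. The 17 organelle genes went from a median of 3.36 to -0.91, and 2 kept their sign.

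**Figure D2:**
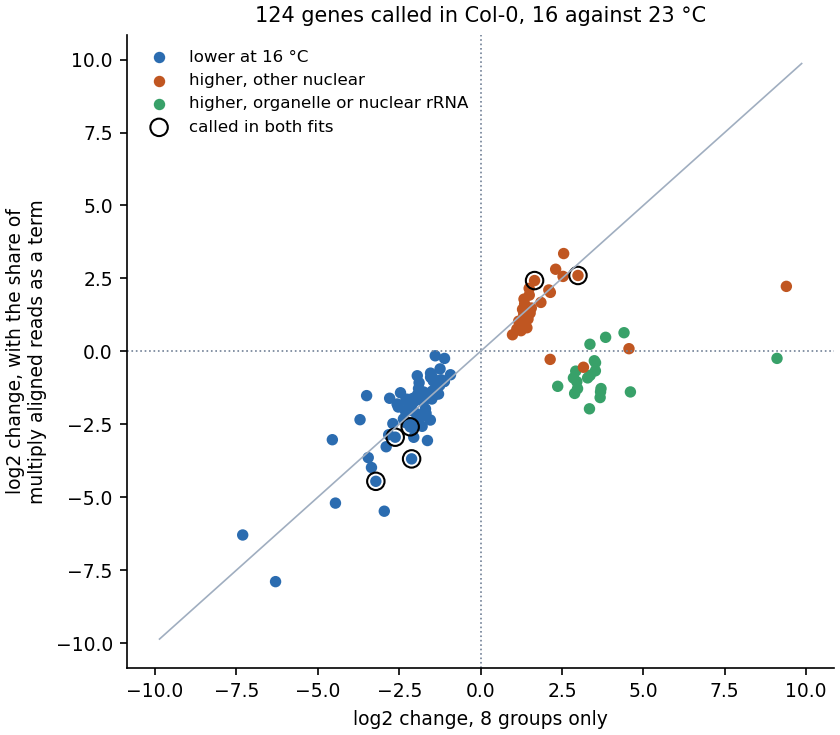
Log2 change between 16 and 23 °C in Col-0 for the 124 called genes, from the model with 8 groups (horizontal axis) and from the model that also holds the share of multiply aligned reads (vertical axis), with the line of equal values. Lower genes (blue) all stay below 0, with medians of -1.96 and -1.72, but single genes lie far from the line on either side. Examples are BAM5 (-2.96 and -5.48) and NUDT4 (-3.50 and -1.52). Of the 32 higher nuclear genes other than ribosomal RNA (orange), 30 stay above 0. Organelle and nuclear ribosomal RNA genes (green) fall away from the line to medians of -0.91 and -0.24. The 6 circled genes are called in both.

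WRKY33, one of the genes lower at 16 °C, encodes a transcription factor needed for resistance to necrotrophic fungi. It lies at chr2:16108235-16110766 on the plus strand and shares 26 exon bases with AT2G38480 on the minus strand. It was measured at 19.8, 38.9 and 19.5 CPM in the 3 libraries at 16 °C and at 143.02, 133 and 219.8 CPM at 23 °C, a log2 change of -2.62 ± 0.35 (SE) with an edgeR adjusted p of 1.1e-05. Every library at 23 °C stood above every library at 16 °C, and the call was kept with each library left out. AT2G38480, of unknown function, was itself called lower, from 32.2, 29.4 and 43.6 CPM at 23 °C to 0, 5.99 and 3.90 CPM at 16 °C. The counts of overlapping genes on opposite strands cannot be assigned to 1 of them.

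SZF1 and CZF1 encode closely related CCCH zinc-finger proteins that regulate salt stress responses. SZF1 (chr3:20776220-20778952) had 25.5, 12.0 and 31.2 CPM at 16 °C and 143.02, 130.3 and 127 CPM at 23 °C, and CZF1 (chr2:16771997-16774734) had 34.0, 23.97 and 19.5 CPM against 111, 118 and 129 CPM. Both groups were well apart for either gene. The log2 changes were -2.57 ± 0.37 (SE) with an adjusted p of 5.3e-05 for SZF1 and -2.16 ± 0.32 with 6.1e-05 for CZF1, and both calls were kept with each library left out. With the share of multiply aligned reads in the model, CZF1 was at -2.59 ± 0.52 (adjusted p 0.0211) and SZF1 at -1.81 ± 0.67 (0.699).

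The 250 bases upstream of these regulators are shown because W-boxes are known in promoters of such genes. TTGAC, the core of the W-box, was searched on both strands (GTCAA is its reverse complement) in the 250 bases before the annotated start of each tested protein-coding gene. It occurred in 44% of all 9752 such windows, in 63.9% (46) of the 72 windows of lower genes and in 25% (7) of the 28 windows of higher genes. The windows below are from RefSeq TAIR10.1, written 5′ to 3′ on the strand of the gene with TTGAC or GTCAA in capitals; they lie at chr2:16107985-16108234 (WRKY33, plus), chr3:20775970-20776219 (SZF1, plus), chr2:16771747-16771996 (CZF1, plus) and chr1:9649324-9649573 (ZAT10, minus).
WRKY33: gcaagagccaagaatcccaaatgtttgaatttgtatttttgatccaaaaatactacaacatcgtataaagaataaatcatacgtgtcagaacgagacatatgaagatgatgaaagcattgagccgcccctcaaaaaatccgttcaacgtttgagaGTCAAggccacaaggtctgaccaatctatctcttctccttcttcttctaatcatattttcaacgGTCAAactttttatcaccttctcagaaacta
SZF1: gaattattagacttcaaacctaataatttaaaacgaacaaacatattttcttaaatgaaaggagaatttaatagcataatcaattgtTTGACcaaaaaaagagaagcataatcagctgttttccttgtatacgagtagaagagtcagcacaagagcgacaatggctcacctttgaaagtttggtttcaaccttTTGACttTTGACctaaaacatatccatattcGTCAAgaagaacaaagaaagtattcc
CZF1: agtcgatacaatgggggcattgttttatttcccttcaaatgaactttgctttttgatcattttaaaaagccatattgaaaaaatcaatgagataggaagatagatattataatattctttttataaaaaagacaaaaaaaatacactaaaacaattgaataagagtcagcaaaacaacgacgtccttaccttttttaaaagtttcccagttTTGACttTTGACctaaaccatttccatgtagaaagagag
ZAT10: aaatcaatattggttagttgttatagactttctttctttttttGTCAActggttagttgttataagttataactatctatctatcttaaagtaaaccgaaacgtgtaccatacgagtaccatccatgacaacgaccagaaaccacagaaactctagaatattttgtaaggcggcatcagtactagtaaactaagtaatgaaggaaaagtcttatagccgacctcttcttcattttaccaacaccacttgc

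WRKY33 held 2 copies of the core, SZF1 4, CZF1 2 and ZAT10 1. The SZF1 and CZF1 windows shared a run of 19 bases, ttTTGACttTTGACctaaa, in which 2 cores stand side by side, 40 bases before the start of SZF1 and 22 bases before that of CZF1. A pair of cores spaced in this way was searched on either strand (a second TTGAC that begins 2 bases after the end of the first). It was found in 34 (0.349%) of the 9752 windows and in 1 (3.57%) of the 28 windows of higher genes. Of the 72 windows of lower genes 2 (2.78%) held it, those of SZF1 and CZF1. The spacing was that of the run in these 2 windows, so at least 2 hits among lower genes were fixed in advance. The word CGCGTT, known as the rapid stress response element, occurred in 6 (8.33%) of the 72 windows, among them those of DIC2 and TCH2, in 2 (7.14%) of the 28 windows of higher genes and in 2.69% of all windows. The core CCGAC of the cold-responsive CBF sites occurred in 16.7% of windows of lower genes, 17.9% of windows of higher genes and 13.1% of all windows. ACGTG, the ABRE core, occurred in 36.1% of windows of lower genes, 21.4% of windows of higher genes and 23.8% of all windows. For the G-box CACGTG these shares were 8.33, 7.14 and 7.44%, and for the evening element AAATATCT 6.94, 7.14 and 5.38%. These matches are letters in a window and were not tested as binding sites.

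Most touch and rapid stress genes stood lower at 16 °C. Of the list's 17 genes, 14 were tested. Among these, 6 were called lower (WRKY33, SZF1, CZF1, ZAT10, CAF1a and TCH2) and none higher, against 0.713% of all tested genes called lower. This list, like the others below, was chosen with earlier results of these data known, so its counts are no independent support. The median log2 change of the 14 was -1.86, against 0.016 for all tested genes. Without overlap between the groups, 12 of the 14 were lower, against 8.63% of all tested genes. By DESeq2, which gave no adjusted p for 4 of the 14, 6 were called lower and none higher. At an unadjusted p under 0.05 edgeR had 11 lower and 0 higher. The share of all tested genes at that unadjusted threshold was not computed for this comparison. Counts of list members at it, here and below, thus have no background to be read against. Without replicate 2 at 16 °C 3 were called, and 4 or 5 without any other library. The summed level of the 14 tested genes was 720.0, 1067 and 1085 CPM at 16 °C and 1485, 1481 and 1756 CPM at 23 °C. The ratio between the means was 0.608, with p = 0.1 in the exact permutation test. Of these means, 957 CPM at 16 °C and 1574 CPM at 23 °C, WRKY53 alone made up 592 and 531 CPM.

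ZAT10, a zinc-finger repressor of stress genes, had 11.3, 8.99 and 11.7 CPM at 16 °C and 47.7, 33.2 and 64.4 CPM at 23 °C. CAF1a, a deadenylase that shortens mRNA tails after stress, had 0, 12.0 and 19.5 CPM against 65.6, 38.3 and 39.8 CPM. TCH2, a calmodulin-like protein named for its response to touch, had 22.7, 30.0 and 11.7 CPM against 69.1, 61.3 and 77.7 CPM. The groups of none of these 3 genes overlapped, and their adjusted p-values were 0.0079, 0.0249 and 0.0453 in edgeR. The TCH2 call was kept in 0 of the 6 fits that left out a library, the CAF1a call in 3 and the ZAT10 call in 5. TCH2 overlaps AT5G37760 on the other strand.

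Members that did not pass the test lay on the same side with 2 exceptions. The ethylene response factor gene ERF6 had a log2 change of -2.08 and the xyloglucan endotransglucosylase gene TCH4 of -2.43, both with an adjusted p of 0.0599. ERF5 was at -1.40, ERF104 at -0.94, TCH3 at -0.84 and WRKY40 at -0.44. WRKY53, the most abundant member by CPM, was at 0.16 (592 ± 162 CPM at 16 °C, 531 ± 48.8 at 23 °C, SD, n = 3), and CAF1b at 0.05. WRKY53, TCH3 and WRKY40 share 311, 272 and 51 exon bases with a gene on the other strand. With the share of multiply aligned reads in the model the median of the 14 was -1.92 and 2 were called lower.

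**Figure D3:**
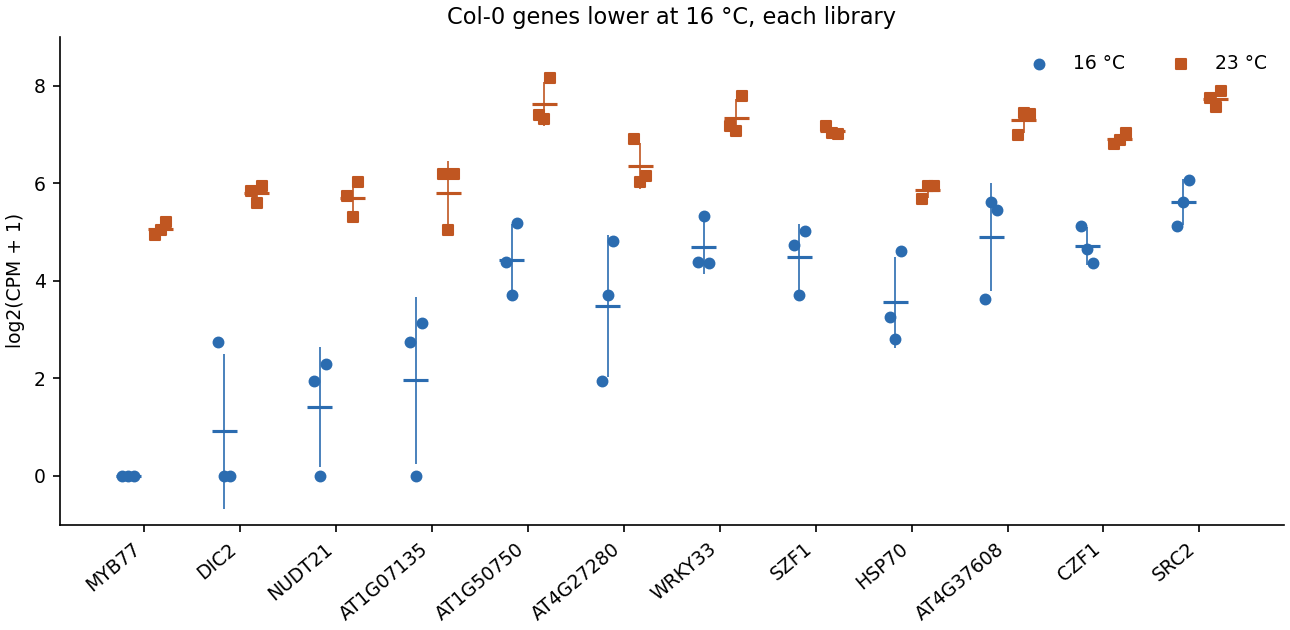
Level of the 12 named lower genes in each Col-0 library at 16 °C (blue circles) and 23 °C (orange squares) as log2(CPM + 1), with the mean (line) and SD (bar) of 3 libraries. For every gene shown the 3 libraries at 23 °C lie above the 3 at 16 °C, and MYB77 has no count at 16 °C.

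Other lower genes that kept their call with every library left out included regulators, transporters and enzymes outside that list. MYB77, a transcription factor that takes part in auxin responses and lateral root formation, had 0 counts in all 3 libraries at 16 °C and 29.8, 31.9 and 36.0 CPM (69 counts) at 23 °C. Set against a floor of 3 counts over the group, it was at least 10.09-fold lower at 16 °C. At 10 °C the Col-0 mean was 4.88 CPM and at 27 °C 45.4 CPM. DIC2, a mitochondrial dicarboxylate carrier, had 5.67, 0 and 0 CPM at 16 °C and 56.0, 47.3 and 60.6 CPM at 23 °C, a ratio of 25.4 of 23 °C over 16 °C with a 95% counting interval of 6.88 to 213. NUDT21, a nudix hydrolase, had 2.83, 0 and 3.90 CPM against 52.4, 38.3 and 64.4 CPM, a ratio of 23.7 with an interval of 6.40 to 198. Both intervals are wide because 2 counts at 16 °C lie behind each, and they cover counting error only.

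AT1G50750, which encodes a protein with a plant mobile domain (chr1:18810603-18812050, minus strand), was the lower gene with the smallest p once the share of multiply aligned reads was in the model. Its levels were 19.8, 12.0 and 35.1 CPM at 16 °C and 168, 158 and 282 CPM at 23 °C. The log2 change was -3.22 ± 0.40 (SE) in the 8-group model and -4.46 ± 0.70 with the share added, where its adjusted p was 0.0015. SOBIR1, a receptor kinase that works with receptor-like proteins in immunity, was the next, with 25.5, 5.99 and 3.90 CPM against 48.9, 56.2 and 62.5 CPM. Its log2 change was -2.12 ± 0.48, and -3.69 ± 0.63 with the share added (adjusted p 0.0034). SOBIR1 overlaps AT2G31890 on the other strand, and it was named for its call in that model, after its values were seen.

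SRC2, a C2-domain protein first described as cold-regulated in soybean, was among the lower genes of highest level, with 34.0, 47.9 and 66.4 CPM at 16 °C and 213, 187 and 235 CPM at 23 °C. Its log2 change was -2.12 ± 0.27 (SE). AT4G27280, a calcium-binding EF-hand protein, had 2.83, 12.0 and 27.3 CPM against 118, 63.9 and 70.1 CPM. HSP70 (AT3G12580), a chaperone induced by heat, had 8.50, 5.99 and 23.4 CPM against 50.06, 60.1 and 60.6 CPM. Its Col-0 means were 3.63, 12.6, 56.9 and 174 CPM at 10, 16, 23 and 27 °C. It was the 1 gene called among 17 tested of the heat shock and chaperone list, whose median log2 change was -0.17. Of all tested genes 0.713% were called lower.

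AT1G07135, a glycine-rich protein, and AT4G37608, an uncharacterised protein with 151 exon bases shared with AT4G37610 on the other strand, complete the 12 named lower genes. AT1G07135 had 5.67, 0 and 7.81 CPM at 16 °C and 71.5, 31.9 and 72.0 CPM at 23 °C. AT4G37608 had 11.3, 47.9 and 42.9 CPM against 126, 172 and 171 CPM. In Col-0 at 10 °C the means of SZF1, WRKY33, CZF1 and SRC2 were 15.6, 31.4, 44.6 and 55.2 CPM, and at 27 °C 124, 167, 102 and 168.6 CPM. The levels at 10 °C thus lay nearer to those at 16 °C and the levels at 27 °C nearer to those at 23 °C; the comparisons share the libraries named.

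Jasmonate, a hormone of wounding and herbivore defence, was represented by 12 tested genes. Of these, 2 were called lower and none higher, against 0.713% of all tested genes called lower. The median log2 change of the 12 was -0.57, against 0.016 for all tested genes, and 11 of the 12 were negative. LOX2, a chloroplast lipoxygenase of jasmonate synthesis, had 414, 327 and 320.2 CPM at 16 °C and 870.04, 763 and 661 CPM at 23 °C, a log2 change of -1.11 ± 0.27 (SE). MYC2, the master bHLH factor of jasmonate responses, had 36.8, 33.0 and 35.1 CPM against 106, 83.1 and 121 CPM, a log2 change of -1.55 ± 0.33. The groups of both genes were apart, and with a library left out the LOX2 call was kept in 2 of 6 fits and the MYC2 call in 5. With the share of multiply aligned reads in the model LOX2 was at -1.03 (adjusted p 0.779) and MYC2 at -1.59 (0.660). MYC2 shares 3241 exon bases, nearly its whole annotated length, with AT1G32630 on the other strand, so its counts cannot be assigned to 1 strand. By DESeq2, with no adjusted p for 4 of the 12, 2 members were called lower, and at an unadjusted p under 0.05 edgeR had 5 lower and 0 higher. VSP2, a storage protein induced by jasmonate, was at -1.92 with an adjusted p of 0.0611.

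Cold-response genes lay on both sides of 0. Of 24 tested, KIN1 was called higher and RAV1 lower, against 0.515% and 0.713% of all tested genes. The median log2 change of the 24 was -0.17, with 10 positive and 14 negative. KIN1, a small hydrophilic protein induced by cold, had 68.0, 153 and 89.8 CPM at 16 °C and 34.6, 25.6 and 24.6 CPM at 23 °C, with no overlap. Its log2 change was 1.85 ± 0.41 (SE), and the call was kept in 4 of 6 fits with a library left out. In Col-0 the KIN1 mean was 474 CPM at 10 °C and 6.98 CPM at 27 °C. RD29A was at 1.26 (adjusted p 0.0903) and COR15A at 1.18 (0.195). CBF1, CBF2 and CBF3 together had 3 counts at 16 °C and 7 at 23 °C and were not tested.

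RAV1, an AP2/B3 factor that restrains growth and flowering, had 25.5, 3.00 and 3.90 CPM at 16 °C and 45.3, 44.7 and 49.3 CPM at 23 °C. Its relative TEM2, a repressor of the floral inducer FT, had 19.8, 23.97 and 27.3 CPM against 60.8, 67.7 and 72.0 CPM. The TEM2 groups were apart, with a log2 change of -1.499 ± 0.35 (SE) and an adjusted p of 0.0205, and the call was kept in 2 of 6 fits. TEM2 was the 1 gene called among 15 tested floral repressors, against 0.713% of all tested genes called lower. The median log2 change of these repressors was -0.17. TEM1 was at -1.19 with an adjusted p of 0.0611.

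The MADS genes of the flowering pathway were not called. FLC, the floral repressor silenced by vernalization, had a log2 change of 1.78 ± 0.88 (SE, adjusted p 0.451), resting on 8 counts at 16 °C and 5 at 23 °C. It shares 804 exon bases with AT5G01675 on the other strand. FLM, a repressor in the thermosensory pathway, stood at 29.8 ± 21.7 CPM at 16 °C and 11.4 ± 6.13 at 23 °C (SD, n = 3), a log2 change of 1.37 ± 0.50 with an adjusted p of 0.215. SVP, which acts with FLM, stood at 40.7 ± 9.35 and 46.8 ± 9.23 CPM, and MAF2, an FLC relative, at 21.7 ± 6.24 and 25.0 ± 7.15 CPM. The groups overlapped for these 4 genes. SOC1, a floral activator, had 6 counts at 16 °C and 12 at 23 °C, with a log2 change of 0.18 ± 0.70 (SE, adjusted p 0.965).

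Among nuclear protein-coding genes higher at 16 °C, AT5G57770 had the strongest support. It encodes a protein with a DUF828 domain annotated with auxin canalization (chr5:23400864-23403150, minus strand) and shares 404 exon bases with AT5G57760 on the plus strand. It was measured at 238, 458 and 480.2 CPM at 16 °C and at 35.8, 40.9 and 73.9 CPM at 23 °C. The groups were far apart, the log2 change was 2.99 ± 0.37 (SE) with an adjusted p of 1.1e-05, and the call was kept in every fit with a library left out and with the share of multiply aligned reads in the model (2.60 ± 0.51, adjusted p 0.0209). At 10 °C the Col-0 mean was 456 ± 230.5 CPM and at 27 °C 85.8 ± 13.6 CPM (SD, n = 3 each).

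AT5G53050, an alpha/beta-hydrolase gene that shares 624 exon bases with AT5G53048, had 899, 1438 and 2760.4 CPM at 16 °C and 256, 422 and 476 CPM at 23 °C. The 2 groups did not overlap, although its libraries at 16 °C differed among themselves by more than the gap between the groups. AT2G36970, a UDP-glycosyltransferase, had 45.4, 114 and 168 CPM against 45.3, 17.9 and 37.9 CPM, so that its groups nearly touch, and was the other higher gene called with the share of multiply aligned reads in the model. UGT79B1, a glycosyltransferase of anthocyanin synthesis, had 59.5, 68.9 and 97.6 CPM against 42.9, 24.3 and 18.9 CPM, a log2 change of 1.32 ± 0.34 (SE). Its call was kept in 2 of 6 fits with a library left out, and with the share of multiply aligned reads in the model it was at 1.42 ± 0.62 (adjusted p 0.852). It was the 1 called member among 19 tested flavonoid and anthocyanin genes, of which 17 were positive, with a median of 0.39. Of all tested genes 0.515% were called higher. DESeq2 called none of the 19, 3 of which had no adjusted p there, and edgeR had 3 higher at an unadjusted p under 0.05.

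GAI, a DELLA repressor of gibberellin responses, had 39.7, 68.9 and 125 CPM at 16 °C and 28.6, 14.1 and 39.8 CPM at 23 °C, so its groups overlapped. Its log2 change was 1.496 ± 0.38 (SE, adjusted p 0.0343), and the call was kept in 2 of 6 fits. LTP2, a lipid transfer protein of the cuticle, was lower at 16 °C with 22.7, 30.0 and 23.4 CPM against 113, 99.7 and 45.5 CPM. It was the 1 called of 9 tested cuticular wax genes, whose median was -0.35, against 0.713% of all tested genes called lower.

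**Figure D4:**
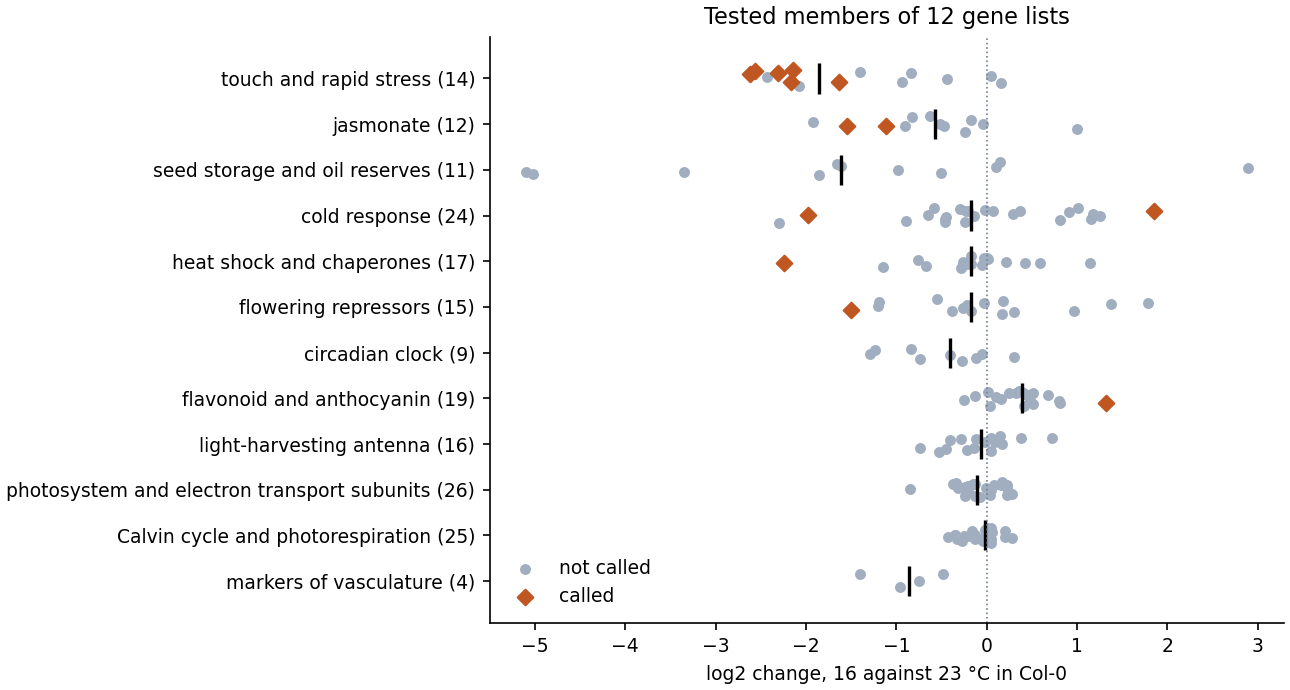
Log2 change between 16 and 23 °C in Col-0 of the tested members of 12 gene lists (points, number tested in brackets), with called members as diamonds and the median of each list as a line. The touch and rapid stress list has its median at -1.86 and 6 called members, all lower, while the light-harvesting, photosystem and Calvin cycle lists sit around 0 with no called member.

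No nuclear photosynthesis gene of the lists passed the test. None of 16 light-harvesting, 26 photosystem and electron transport, 25 Calvin cycle and 17 chlorophyll and carotenoid genes was called by edgeR or DESeq2. At an unadjusted p under 0.05 edgeR had 1 photosystem gene lower and 0 genes of the other 3 lists in either direction. Their median log2 changes were -0.06, -0.11, -0.02 and 0.03. Of 245 cytosolic ribosomal protein genes none was called by either tool (DESeq2 gave 20 no adjusted p), 4 were higher at an unadjusted p under 0.05, and the median was 0.0018.

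Seed storage genes had a median of -1.62 over 11 tested, or -1.13 with OLEO2, which had no count at 16 °C, at its bound. None was called by edgeR, while 6 were lower and 1 higher at an unadjusted p under 0.05. DESeq2 called 0 but gave no adjusted p for 7 of the 11. CRU3, a cruciferin, had 51.0, 89.9 and 46.9 CPM at 16 °C and 389.7, 267 and 22.7 CPM at 23 °C, so that 2 of the 3 libraries at 23 °C were high and the third was below those at 16 °C. Vascular markers were below 0 in 4 of 4 tested genes (median -0.86), none of them called by either tool and 1 lower at an unadjusted p under 0.05. Their part in the lower levels of other genes was not tested. None of the 6 floral organ markers had enough counts to be tested, and of these AP3, AG and SEP2 had 0 counts in both groups.

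Organelle and ribosomal RNA genes made up 20 of the 52 higher genes and moved with the share of multiply aligned reads. All 44 tested organelle genes were positive, with a median log2 change of 2.81. Of the 44, 17 were called, against 0.515% of all tested genes called higher. DESeq2, with no adjusted p for 14 of the 44, called 5 of them, and edgeR 1 without replicate 1 at 23 °C, 4 without replicate 2 there, 6 without replicate 1 or 2 at 16 °C and 12 or 19 without the remaining ones. The highest of them by level, ATMG00030, had 32395, 34139 and 26526 CPM at 16 °C and 1262, 3130.4 and 4646 CPM at 23 °C. ATCG01210 had 13331, 2313 and 886 CPM against 124, 190.4 and 371 CPM, and ATMG00020 had 4904, 2777 and 3627 CPM against 178, 365 and 438 CPM. No group overlapped with the other for these 3 genes.

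The 3 tested genes annotated as nuclear ribosomal RNA were all called higher. AT3G41768 had 22460.4, 8568 and 3264 CPM at 16 °C and 523, 911 and 1209 CPM at 23 °C, and AT2G01010 had 3271, 791 and 160.1 CPM against 1.19, 1.28 and 5.68 CPM. Within the 16 °C group both were highest in replicate 1 and lowest in replicate 3, the order in which those libraries stand in their share of multiply aligned reads (35.8, 29.0 and 22.9%). AT2G01020, the third of them, was at a log2 change of 3.84. AT2G01021, annotated as an uncharacterised protein (chr2:6571-6672) a short way downstream of AT2G01010 and AT2G01020, had 788, 1282 and 129 CPM against 19.1, 19.2 and 60.6 CPM. These last 3 genes and the chloroplast gene ATCG01010 kept their calls in every fit with a library left out. With the share of multiply aligned reads in the model, the 3 ribosomal RNA genes had a median of -0.24 and none was called. In that fit AT2G01021 was at 0.089 in place of 4.56 and ATCG01010 at 0.64 in place of 4.41, and neither was called.

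A few called genes had 1 library far from the others. ARP6, a subunit of the SWR1 complex that places histone H2A.Z, had 17279 CPM (6096 counts) in replicate 1 at 16 °C but 17.98 and 7.81 CPM in replicates 2 and 3, against 5.96, 11.5 and 7.58 CPM at 23 °C. Its log2 change of 9.39 fell to 0.64 without that library. ESP, the epithiospecifier protein that turns glucosinolate breakdown towards nitriles, had 19.8, 47.9 and 539 CPM at 16 °C and 40.5, 21.7 and 37.9 CPM at 23 °C, and its log2 change of 2.55 was -0.0083 without replicate 3. That replicate also held 5 counts at 8 genes that no other Col-0 library had a count for and that the IP-Svi-0 libraries had 237 to 461 counts for. PERK8, a receptor-like kinase, had 513 CPM in replicate 3 at 23 °C against 19.1 and 15.3 CPM in the other two and 19.8, 21.0 and 3.90 CPM at 16 °C.

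The same temperatures in IP-Svi-0 gave 79 called genes (0.782%), 17 higher (0.168%) and 62 lower (0.614%). Of the 72 genes lower at 16 °C in Col-0, 64 also had a negative change in IP-Svi-0 and 9 were called lower there, among them NUDT21, AT4G27280, HSP70, AT4G37608, CAF1a and ORA47. Of the 52 higher genes, 38 were positive in IP-Svi-0 and 3 were called: AT5G57770, AT2G05510, a glycine-rich protein, and ELIP2, an early light-induced protein of the chloroplast. ELIP2 had 31.2, 17.98 and 54.7 CPM at 16 °C and 4.77, 6.39 and 5.68 CPM at 23 °C in Col-0, a log2 change of 2.53 ± 0.50 (SE) against 2.73 in IP-Svi-0. None of the 124 genes was called in the opposite direction.

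In IP-Svi-0 the summed level of the 14 tested members of the touch and rapid stress list was 520.2 ± 128 CPM at 16 °C and 800.03 ± 92.1 CPM at 23 °C (SD, n = 3). In Col-0 it was 957 ± 206 and 1574 ± 158 CPM. WRKY53 alone made up 298 and 360 CPM of the IP-Svi-0 means and 592 and 531 CPM of the Col-0 means. All 14 tested members were negative in IP-Svi-0, with a median log2 change of -0.79. Called lower were 2, CAF1a at -2.68 and ERF104 at -1.30, against 0.614% of all tested genes in IP-Svi-0. ERF6 was at -2.08 in both accessions, and ZAT10 at -1.93 there against -2.14 in Col-0. SZF1 had 10.8 ± 7.20 CPM at 16 °C and 16.4 ± 2.78 CPM at 23 °C in IP-Svi-0, a log2 change of -0.50 with an adjusted p of 0.660, and WRKY33 had 26.6 ± 7.31 and 36.0 ± 7.84 CPM, a log2 change of -0.41. The difference between the accessions in the response to 16 °C was 2.06 for SZF1 and 2.21 for WRKY33 on the log2 scale, with adjusted p-values of 0.240 and 0.1096, so neither difference passed the test.

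Across all tested genes edgeR called 0 differences in response between the accessions, with 1288 genes at an unadjusted p under 0.05 and a smallest adjusted p of 0.108. DESeq2 gave no adjusted p for 9201 of the 10097 genes in this contrast. Among the rest it called 4, all with a lower signed log2 change in IP-Svi-0 than in Col-0: AT3G49668, CYP81H1, AT5G14550 and AT5G56544. By edgeR, AT3G49668, CYP81H1 and AT5G14550 were positive in Col-0 (1.34, 0.93 and 1.22) and negative in IP-Svi-0 (-0.71, -0.76 and -0.68). AT5G56544 was at -0.50 in Col-0 and at -2.73 in IP-Svi-0, a larger decrease in IP-Svi-0. AT3G49668, a gene of no protein annotation opposite AT3G49670, was higher at 16 °C in Col-0, with 479, 366 and 749.6 CPM against 159.7, 179 and 292 CPM. The absence of calls does not show that the accessions responded alike.

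**Figure D5:**
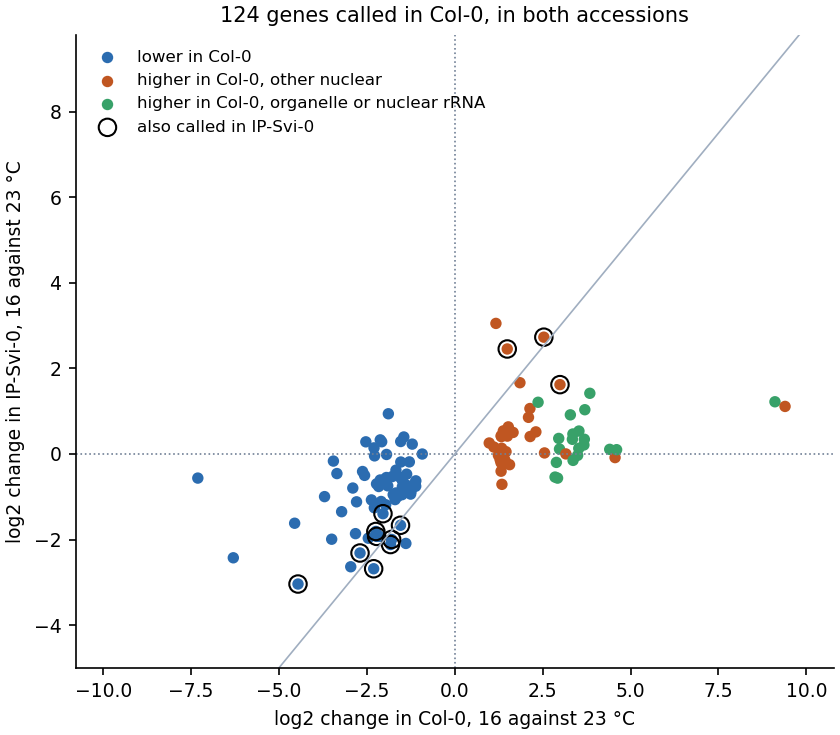
Log2 change between 16 and 23 °C in Col-0 (horizontal axis) and in IP-Svi-0 (vertical axis) for the 124 genes called in Col-0, with the line of equal values. Of the 72 lower genes (blue) 64 are below 0 in IP-Svi-0, while organelle and nuclear ribosomal RNA genes (green) lie between -0.56 and 1.42 there, and circled genes are also called in IP-Svi-0.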

How the data were processed

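RNA from whole seedlings was made into strand-specific mRNA libraries, per the labels' protocols. Per the submitters' processing notes, the authors used FastQC, HISAT2, HTSeq, Cufflinks and Cuffdiff with TAIR10; tool versions and the strand setting of HTSeq are not given in the sources used here. What the authors deposited is a table of raw counts per gene for 24 libraries. The 5 HTSeq summary lines were left out of library sizes; in the 6 libraries compared, reads at no gene were 59.6 to 89.2% and multiply aligned reads 3.83 to 35.8%. Of 33602 gene IDs, 24758 had a count, and 32835 matched the RefSeq annotation of TAIR10.1, the source of names, positions, overlaps and promoter sequence.

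Counts were TMM-scaled and tested with edgeR 4.0.16 (limma 3.58.1, R 4.3.3): filterByExpr with a minimum count of 10 kept 10097 genes, and a quasi-likelihood model with 1 mean for each of 8 groups was fitted to all libraries (common biological coefficient of variation 0.225), with Benjamini-Hochberg adjustment. Standard errors were taken as |log2 change| / sqrt(F). DESeq2 1.42.0 was an alternative. Single library measures were compared by the exact two-sided permutation test. Floors of 3 counts were taken over a group. Replicates differed beyond sampling noise in every pair (chi-square per degree of freedom 1.99 to 9.05), so none was merged. The script was tested on simulated counts.

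Named genes were FLC, FLM, SVP, SOC1 and MAF2; the 12 largest changes per direction among calls with at least 20 CPM that were kept with each library left out; and up to 3 called members per list and direction. The members and all lists were chosen with earlier results of these data known. Genes named besides these (among them SOBIR1, AT2G36970, AT2G38480, ELIP2, PERK8, AT3G49668, CRU3 and RBCS1A) were chosen after their values were seen. Alternatives were other scaling, filters, tool, block, groups, thinning, covariates and gene subsets.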

Additional observations from a re-analysis of the deposited data

How the results depend on the processing

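Counts of calls are given as higher and lower. For the difference in response, these words refer to the signed log2 change in IP-Svi-0 against that in Col-0. In Col-0 (52 and 72), no expression filter gave 111 and 114, a minimum of 1 CPM 95 and 124, only the groups compared 85 higher, the share at genes without overlap as covariate 113 lower, only genes without an overlap 22 and 45 (fewer genes tested), and the share of multiply aligned reads as covariate 2 and 4. Leaving out each library gave 13 to 71 and 30 to 53. In IP-Svi-0 (17 and 62) the first 3 gave 38 and 96, 40 and 103, and 5 and 30; the covariate of overlap gave 35 lower, and leaving out a library 5 to 55 and 18 to 82. For the difference in response (0 and 0), the counts of higher and lower response in IP-Svi-0 were 0 and 4 with DESeq2, 18 and 47 with no filter, 22 and 47 at 1 CPM, 3 and 13 with only the groups compared, 2 and 2 without organelle genes, 2 and 2 without organelle and nuclear rRNA genes, 1 and 0 with the overlap covariate, 2 and 0 with the multiply aligned covariate, and 0 to 4 and 0 to 9 with a library left out. Except where fewer genes or libraries were used, the cause was not tested.

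With the replicate number as a block, Col-0 had 63 and 74 calls, IP-Svi-0 16 and 68 and the difference 1 and 2. Deviations of same-numbered Col-0 libraries at 16 and 23 °C correlated at 0.14, 0.028 and 0.24 across genes, so the numbers were not taken as pairs. DESeq2 shared 83 of its 102 Col-0 calls with edgeR, and libraries thinned to the smallest shared 97 of 117. Over the named genes and settings, 583 values kept side and call, 63 lost the call and 10 changed sign. With the multiply aligned covariate, SVP became 0.061, MAF2 0.45, AT2G01010 -0.24, ATCG01210 -1.39, ATMG00020 -0.39 and AT3G41768 -1.28. With thinning SVP became 0.18 and MAF2 0.0032. With a library left out SOC1 ranged from -0.15 (without replicate 2 at 16 °C) to 0.55 and ESP from -0.0083 (without replicate 3 at 16 °C) to 3.09. DESeq2 size factors moved the median change by 0.0088. 1 count was worth 1.19 to 3.90 CPM, which limits the precision of low values.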

Other observations

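Several genes called lower at 16 °C in Col-0 belong to no list described above. LSU3, LSU1 and ATSDI1, each known to be induced when sulphur is short, had 24.7, 39.0 and 17.4 CPM on average at 16 °C and 94.4, 106 and 52.1 CPM at 23 °C. SHM7, a serine hydroxymethyltransferase, had 22.7, 30.0 and 23.4 CPM against 73.9, 77.9 and 70.1 CPM. The groups of these 4 genes did not overlap, and the log2 changes were -1.95, -1.46, -1.54 and -1.54, with 6, 2, 1 and 3 of the 6 calls kept when a library was left out. With the share of multiply aligned reads in the model LSU3 was at -0.84 and LSU1 at -0.995, and neither was called. None of 13 tested genes of the nitrogen and sulphur assimilation list was called by edgeR or DESeq2 (4 were lower at an unadjusted p under 0.05), and all 13 were below 0, with a median of -0.26. These genes were picked after their values were seen.

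The following genes were likewise picked after their values were seen. ACS6, an enzyme of ethylene synthesis, had 8.50, 3.00 and 0 CPM at 16 °C and 35.8, 31.9 and 30.3 CPM at 23 °C. CPK32, a calcium-dependent protein kinase, had 25.5, 0 and 3.90 CPM against 50.06, 43.4 and 66.3 CPM, and its call was kept in 2 of 6 fits with a library left out. NHL3, a membrane protein of pathogen responses, had 19.8, 21.0 and 19.5 CPM against 70.3, 62.6 and 104 CPM, and its call was kept with every library left out; it overlaps AT5G01255 on the other strand. PKS1, a phytochrome kinase substrate, was higher at 16 °C with 286, 324 and 414 CPM against 106, 139 and 167 CPM, and overlaps AT2G04465.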
